A study of Mus musculus with 12 samples.

Results

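Liver gene expression was compared between Sirt1 heterozygous (Het) male C57BL/6 mice after 34 weeks on a high-fat diet and Het males after the same time on a low-fat diet, with 3 livers in each diet group. The comparison takes the arrays titled Het_HF (replicates 1 to 3) and Het_LF (replicates 1 to 3), which are 6 of the 12 arrays of the study; the other 6 come from SIRT1+/+ (WT) males of the same strain on the same diets and entered the fit as further groups that share its estimate of spread. Each array holds the RNA of 1 liver, labelled with Cy3 and hybridised to a 1-colour 60-mer Agilent array. The labels do not say what the mutant Sirt1 allele lacks, what the diets contain, or how old the mice were. Whole liver was used, so a change in the number of cells of a type and a change in RNA per cell cannot be told apart in any result below.

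SIRT1 is an NAD-dependent deacetylase of the nucleus that acts on histones and on regulators of liver metabolism, among them PGC-1 alpha, FOXO proteins and p53. A long high-fat diet fills hepatocytes with lipid droplets, and the fatty liver can go on to inflammation, in which recruited macrophages surround dying fat-laden cells, and to scar formation by stellate cells. Male mouse liver also expresses a set of genes set by the pulsed male pattern of growth hormone acting through STAT5b, and these genes are known to lose their male pattern when that signal is disturbed.

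The arrays differed in more than diet. High-fat and low-fat arrays of both genotypes were read by the scanner on separate days, the 3 high-fat Het arrays lay on 1 slide and the 3 low-fat Het arrays on 2 others, and no slide held both diets. Diet therefore cannot be told apart from scan day or slide in anything that follows. Between 58.8% and 68.4% of the spots were well above background on each Het array. In a principal component analysis of the 6 Het arrays the first component took 54.5% of the variance and separated the diets, with high-fat replicate 1 farthest out at -55.58 against -27.68 and -30.33 for the other high-fat livers.

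Sirt1 itself was read by 2 probes. On the probe used for the gene, at chr10:62855795-62855854 of mm7, the log2 levels relative to the 75th percentile of each array were -0.72, -0.67 and -0.73 in the high-fat Het livers and -0.37, -0.62 and -0.23 in the low-fat Het livers. The difference was -0.30 ± 0.13 (SE) and did not pass the test (adjusted p = 0.139). On the other probe, at chr10:62838289-62838348, the levels were -1.66, -1.59 and -1.69 against -1.13, -1.18 and -1.12, a difference of -0.50 ± 0.13 (adjusted p = 0.0305 over all probes). On both probes every Het array lay below every WT array of the same diet; because the altered region of the allele is not stated, this checks the labels only in so far as these probes lie within or report on it.

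Of 17042 genes tested, 2704 (15.9%) differed between the diets in Het liver at a Benjamini-Hochberg adjusted p under 0.05, of which 1296 (7.6%) were higher and 1408 (8.26%) lower on the high-fat diet. At least 2-fold changes accounted for 493 of the higher genes (2.89% of those tested) and 468 of the lower (2.75%). The median difference over all genes was -0.00 on the log2 scale, and the median standard error was 0.189. The number called leaned on single livers: it was 874 without high-fat replicate 1, 1097 without low-fat replicate 1, 1520 without low-fat replicate 3 and 1641 without low-fat replicate 2, and 772 genes were called whichever of the 12 arrays was left out. Single genes whose Het diet difference is given below with a standard error passed in each of those 12 fits unless a loss is stated. Of the 139 named genes called, 43 missed the threshold when the 6 Het arrays were fitted alone, 39 without the filter on dim probes and 25 after removal of a trend on the GC content and brightness of probes (the GC trend); where such a setting also moved the value, it is given beside the gene.

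A group of probes stood apart by sequence and not by gene. Among probes that hold a long run of alternating G and T bases, the differences were mostly decreases. A run counts the bases of the longest stretch in which G and T take turns on the probe. Windows of 30 bases from the 5 largest decreases among called genes whose own probe holds a run of 8 or more, and from Junb, which heads the immediate early genes, are printed to show the runs, which are in capitals. Probes of Med13 and Nub1 that do not stand for their genes here also hold such runs and read -4.47 and -3.81.
TC1440579: ctttttgtgttttgGTGTGTGTGTGTGgtg
AK040677: tgttagtctgGTGTGTGTGTattttatagg
Olfr1410: tcatcatTGTGTGTGctgtgtttgtggtca
Itgb3: ggacaattTGTGTGTGTGTGTatgggtggg
Bcorl1: cttttaacTGTGTGTGTGTGTtttgttccc
Junb: gatgtgttTGTGTGTGTGTGTttgactttt

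The probes lie at chr15:100382267-100382326 (TC1440579, minus strand), chr15:11963071-11963130 (AK040677, minus strand), chr1:92516282-92516341 (Olfr1410), chr11:104776217-104776287 (Itgb3), chrX:43499948-43500007 (Bcorl1) and chr8:83563059-83563118 (Junb, minus strand) of mm7. On the Itgb3 probe the high-fat Het levels were 0.18, 0.76 and 2.0 and the low-fat levels 5.77, 5.61 and 3.31, a difference of -3.92 ± 0.87 (adjusted p = 0.016, and 0.0698 without high-fat replicate 1 and 0.0605 without low-fat replicate 1). On the Olfr1410 probe, for an olfactory receptor, they were -3.96, -4.36 and -4.0 against -0.28, 0.52 and -0.79 (-3.92 ± 0.47, adjusted p = 0.00311). TC1440579, a transcript cluster without a gene symbol, differed by -4.25 ± 1.0 and AK040677, a cDNA clone, by -4.23 ± 0.99; neither passed without high-fat replicate 1 (adjusted p = 0.0819 and 0.0791) or without low-fat replicates 1 or 2 (0.0739 and 0.0616 for TC1440579, 0.072 and 0.0601 for AK040677). Bcorl1, a transcriptional corepressor, read -3.45 ± 0.64 (adjusted p = 0.00839).

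Over the 25296 probes kept, 8.01% were called lower and 6.79% higher. Of the 46 probes with a run of 9 or more, 35 (76.1%) were called lower and 0 higher, with a median difference of -2.35. Probes with a run of exactly 8 were called lower in 8 of 57 cases, with a median of -0.18, and those with a run of 7 in 34 of 246 cases, with a median of -0.08. The median level of the 46 probes was -1.82, -2.03 and -2.11 on the high-fat Het arrays and 0.61, 0.96 and -0.62 on the low-fat ones. The WT arrays showed the same split, with -2.10, -1.78 and -1.75 on high fat and 0.55, -0.66 and 1.06 on low fat. In runs of 8 or more of other base pairs, a comparison chosen after the G and T runs had been seen, 6 of 73 probes with alternating A and C were called lower and 5 higher (median 0.01), 8 of 87 with A and G lower and 8 higher (median -0.00), 1 of 66 with C and T lower and 3 higher (median 0.01), and 6 of 55 with A and T lower and 5 higher (median -0.22).

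**Figure D1:**
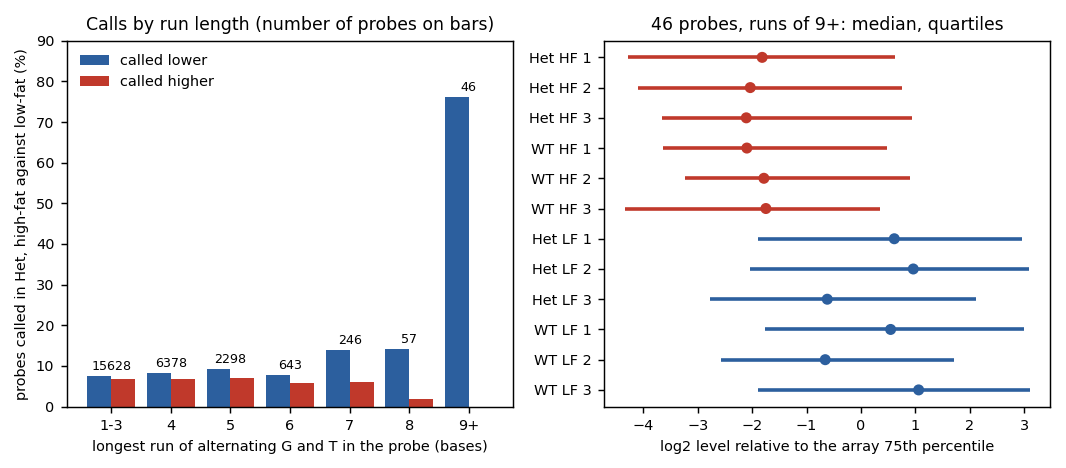
Left, share of probes called lower (blue) or higher (red) on the high-fat diet in Het liver, by the longest run of alternating G and T bases, with the number of probes on the bars; right, median level (points) and quartiles (lines) of the 46 probes with runs of 9 or more on each of the 12 arrays, high-fat in red and low-fat in blue. All 6 high-fat medians lie between -2.11 and -1.75, below all 6 low-fat medians, which reach from -0.66 to 1.06.

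Other probes of the same genes had differences near 0 at the median. For the 24 genes with a run of 9 or more on 1 probe and another kept probe without such a run, 17 of the 24 run probes were called lower (median -1.95). Of the 37 other probes 6 were called lower and 0 higher, with a median of -0.01. That share called lower is larger than the 8.01% over all probes kept. The 6 were probes of Stag2 (-0.63 and -0.90), Med13 (-0.88), Dgcr2 (-0.80), Lmbr1 (-0.58) and Junb (-1.24). The second probes of 3 of the genes above carry no run of 8 or more. Over the whole probe the longest run was 3 bases for Itgb3, 6 for Bcorl1 and 4 for Junb. Only bases 16 to 45 of each 60-base probe are printed below.
Itgb3, second probe: agtctttgtccatttttggttgaaattgct
Bcorl1, second probe: cccaccgagcaccagactgcagaaagaggc
Junb, second probe: tactgtggagaagaaacacgcacttcgtgt

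The second Itgb3 probe, at chr11:104779399-104779458, read 0.14, and the second Bcorl1 probe, at chrX:43498505-43498564, read 0.04; neither passed. The second Junb probe, at chr8:83563097-83563156, was called lower at -1.24 where the run probe read -2.55. Leaving out every probe with a run of 8 or more changed the number of genes called from 2704 to 2676, so the runs touch few genes but several of the largest decreases. The 10 largest decreases given next exclude them.

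The 10 largest increases in Het liver were taken by measured difference, and 4 of them rest on low-fat levels at background, so their place in the order is not set. Tinag, an extracellular matrix glycoprotein of basement membranes, had levels of -0.62, -3.57 and -0.83 on high fat and -7.21, -7.0 and -7.77 on low fat (probe at chr9:76989211-76989270). It was not well above background on any low-fat Het array, so its increase was at least 12.1-fold (5.66 ± 0.67 on the log2 scale as measured, adjusted p = 0.0031). Ly6d, a GPI-anchored surface protein, stood at 5.13, 3.20 and 4.84 against 0.09, 0.57 and -1.12 (4.54 ± 0.61, adjusted p = 0.0041; chr15:74842671-74842730). In both genes high-fat replicate 2 was the lowest of its group.

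Genes for a pair of PDZ-domain scaffold proteins were also among the 10. Gipc2 read 0.96, -2.79 and -0.16 on high fat and -4.93, -4.78 and -5.03 on low fat, a difference of 4.25 ± 0.71. Sdcbp2 read 0.82, -2.77 and -0.01 against -4.57, -4.66 and -4.63 (3.97 ± 0.70). Gprc5b, an orphan G protein-coupled receptor, differed by 3.51 ± 0.70 and Ttc39a, a tetratricopeptide repeat gene, by 3.38 ± 0.57. Hormad2, known from meiotic chromosomes, was not above background in low-fat Het liver and was at least 3.63-fold higher on high fat, though without high-fat replicate 1 its adjusted p was 0.0542.

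Hsd3b4 and Hsd3b5, reductase-type members of the 3-beta-hydroxysteroid dehydrogenase family, fell furthest. Hsd3b5 (chr3:98414360-98414419) stood at -4.18, -2.80 and -0.53 on high fat and 4.31, 3.45 and 4.60 on low fat, a 98.3-fold difference (-6.62 ± 0.82, adjusted p = 0.0032). Hsd3b4 read -3.54, -2.73 and -0.67 against 4.59, 3.78 and 4.62 (-6.64 ± 0.66, adjusted p = 0.00214). The high-fat livers themselves were spread over more than 2 log2 units in both genes, with replicate 1 lowest and replicate 3 highest, while the low-fat livers lay close together. The 2 genes belong to a family of near-identical sequences. Their probes share no more than 6 consecutive bases, but neither probe was compared with the transcript of the other gene. Cross-hybridisation between these 2 genes or with other members was not tested.

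Slco1a1, an organic anion transporter of the male hepatocyte, followed the same order of livers, at -1.78, -0.51 and 1.20 on high fat and 3.23, 2.67 and 3.23 on low fat (-3.40 ± 0.55, adjusted p = 0.00545). Moxd1, a monooxygenase related to dopamine beta-hydroxylase, was not well above background in any high-fat Het liver and was above it in 2 of 3 low-fat livers, at least 4.60-fold lower on high fat (adjusted p = 0.00884); with normexp background correction the difference was -1.22 and did not pass (adjusted p = 0.147). Cish, the STAT5-induced inhibitor of cytokine signalling, had the smallest standard error of the 10: -0.03, -0.32 and 0.12 on high fat and 2.33, 3.0 and 3.30 on low fat, 7.72-fold lower (-2.95 ± 0.24, adjusted p = 0.00105; chr9:107031313-107031372).

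The other 5 decreases among the 10 included signalling genes. Spry4, an inhibitor of receptor tyrosine kinase signalling, differed by -3.07 ± 0.49, Adgrf1, an adhesion G protein-coupled receptor, by -3.03 ± 0.37, and Grm8, a glutamate receptor, by -2.72 ± 0.45. Tmeff2, a transmembrane protein with follistatin-like domains, was not well above background on high fat and at least 3.79-fold lower, though with normexp background correction it read -0.85 and did not pass (adjusted p = 0.129). Rrp1b, a ribosomal RNA processing factor, was called lower on the probe used (-2.70 ± 0.37), but its other 3 probes read 0.10, -0.00 and 0.73, the last of them called higher (adjusted p = 0.0205 over all probes), and the mean of its probes read -0.47 and did not pass (adjusted p = 0.106).

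**Figure D2:**
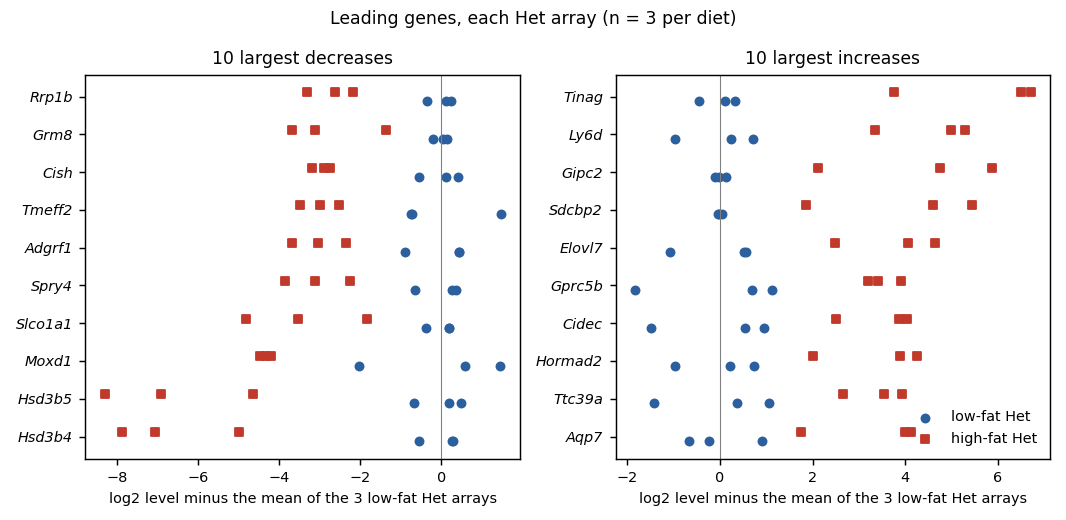
The 10 largest decreases (left) and the 10 largest increases (right) among called genes without long G and T runs; each point is 1 Het array (blue circles, low fat; red squares, high fat; n = 3 per diet) as log2 level minus the mean of the 3 low-fat arrays. The 20 genes were chosen among those in which the diets do not overlap, so that separation is not a result. High-fat replicate 2 is the lowest red square for Tinag and Ly6d.

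Gene lists were described by how many of their measured members were called, to be read against the 7.6% higher and 8.26% lower over all genes. The male-biased liver genes that passed were all lower and the female-biased ones all higher. Of 18 male-biased genes measured, 9 were called lower and 0 higher, with a median of -0.85; leaving out 1 array gave between 7 and 10 lower among the Het arrays. Besides the 4 above these were Cyp7b1, the oxysterol hydroxylase (-1.40 ± 0.29), Elovl3 (-1.71), Susd4 (-1.67) and the complement genes C8a (-0.85; adjusted p = 0.0547 without high-fat replicate 1) and C8b (-1.20). The male-liver genes Cyp2d9 (0.17), Mup3 (0.01) and Cyp4a12a (-0.58) did not pass.

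Of 20 female-biased genes, 9 were called higher and 0 lower, with a median of 0.89. The cytochrome P450 gene Cyp2b13 read 3.23, 3.59 and 1.30 on high fat and -0.12, 1.12 and -0.14 on low fat (2.42 ± 0.53, adjusted p = 0.016). Here high-fat replicate 3 was the closest to the low-fat livers, as it was for Hsd3b5 and Slco1a1. Cyp2b9 differed by 2.05 ± 0.49 (adjusted p = 0.0219), Sult1e1, the oestrogen sulfotransferase, by 1.59 ± 0.40, and Cyp3a16 by 1.01 ± 0.25. These calls were close to the threshold: 0 of the 20 passed without high-fat replicate 1 or without low-fat replicate 1, 3 without high-fat replicate 2 and 2 without low-fat replicate 3, and 0 when the 6 Het arrays were fitted alone. Sult1e1 also missed the threshold without high-fat replicate 3 (adjusted p = 0.0511) and without low-fat replicate 2 (0.0761).

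In the growth hormone and STAT5 axis, 4 of 18 genes were called lower and 0 higher, with a median of -0.40. Apart from Cish they were Igfbp2, Socs3, another STAT-induced inhibitor, and Stat5b itself. Igfbp2, a binding protein for insulin-like growth factors, stood at 3.30, 4.44 and 3.76 on high fat and 5.46, 4.94 and 5.83 on low fat (-1.58 ± 0.33, adjusted p = 0.0133, and 0.0573 without high-fat replicate 1). Stat5b read 3.55, 3.76 and 3.74 against 4.31, 4.13 and 4.14 (-0.51 ± 0.14, adjusted p = 0.0303); with the GC trend removed it read -0.25 (adjusted p = 0.189), and it also missed the threshold with the mean of its probes, scaling to the median, no filter on dim probes or the Het arrays alone (adjusted p between 0.0575 and 0.14). Socs3 differed by -0.93 ± 0.24. Without high-fat replicate 1 the adjusted p was 0.113 for Stat5b and 0.0969 for Socs3, and neither passed without high-fat replicate 2 or low-fat replicate 2 or 3, nor Stat5b without low-fat replicate 1. The list's count was 1 without high-fat replicate 1 and 2 without low-fat replicate 2 or 3.

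The genes of lipid droplets and PPARG targets that passed were all higher on the high-fat diet. Of 20 measured, 8 were called higher and 0 lower, with a median of 0.61, and 5 without high-fat replicate 1. Pparg, the adipogenic nuclear receptor, read 2.95, 2.60 and 2.39 on high fat and 1.48, 1.84 and 1.27 on low fat (1.12 ± 0.20, adjusted p = 0.00746). Its target Fabp4, a fatty acid carrier, read 4.29, 3.39 and 3.86 against 2.16, 2.31 and 2.08 (1.66 ± 0.28, adjusted p = 0.0059). The diets did not overlap in either gene, as in 2676 of the 2704 genes called and 36.5% of all genes tested.

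Cidec, which fuses lipid droplets, was at 5.62, 4.09 and 5.43 on high fat and 2.12, 2.52 and 0.08 on low fat (3.47 ± 0.74; adjusted p = 0.0134, and 0.0594 without high-fat replicate 1). Mogat1, a monoacylglycerol acyltransferase, differed by 2.36 ± 0.48, and Aqp7, a glycerol channel not above background on low fat, was at least 3.65-fold higher. Plin4 (2.25), Cd36 (1.27) and Lpl (1.01) were the other called members. The related droplet gene Cidea had the highest difference in the list, 3.94, and did not pass.

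Of 22 genes of fatty acid and triglyceride synthesis, 4 were called higher and 0 lower, with a median of 0.46. The fatty acid elongase Elovl7 read -1.33, -3.49 and -1.89 on high fat against -5.45, -5.39 and -7.04 on low fat, where it was not above background. The bound on its increase is at least 8.2-fold (adjusted p = 0.00439). Pklr, liver pyruvate kinase (0.76 ± 0.18), Acly, which makes cytosolic acetyl-CoA (1.05 ± 0.29), and Thrsp, a lipogenic nuclear protein (1.09 ± 0.31), were the others. None of these 3 passed with the GC trend removed (0.56, 0.95 and 0.86; adjusted p = 0.0835, 0.0553 and 0.138) or without high-fat replicate 1 (adjusted p = 0.0698, 0.112 and 0.149), and the list's count was then 1, as it was without low-fat replicate 2 or 3; without high-fat replicate 3 it was 2. Thrsp also missed the threshold without WT high-fat replicate 1 or 2 (adjusted p = 0.05 and 0.0543).

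Of 24 genes of fatty acid oxidation and PPARA targets, 1 (Acot2) was called higher and 0 lower, with a median of 0.15, below the share over all genes; Acot2 (1.02 ± 0.31) lost its call in 10 of the 12 fits, with an adjusted p of 0.171 without high-fat replicate 1. Among 19 apolipoprotein genes, Apoa4, carried on chylomicrons and VLDL, rose from 4.73, 5.21 and 3.71 on low fat to 6.92, 6.13 and 6.69 on high fat (2.03 ± 0.41; adjusted p = 0.0112, and 0.0514 without high-fat replicate 1), while Apom fell by 0.67. Of these 19 genes 2 were called higher, 0 without high-fat replicate 1 and 1 without high-fat replicate 2 or low-fat replicate 1 or 3.

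Genes typical of macrophages that gather around lipid had the highest share of calls among the lists of 10 or more genes. Of 17 lipid-associated macrophage genes, 12 were called higher and 1 lower, with a median of 1.11. Gpnmb, a lysosomal glycoprotein, stood at -0.47, -2.10 and -0.47 on high fat and -3.06, -4.13 and -5.55 on low fat (3.23 ± 0.60, adjusted p = 0.00865). Mmp12, the macrophage elastase, read -0.91, -2.39 and -2.46 against -4.50, -4.29 and -5.28 (2.77 ± 0.48, adjusted p = 0.00663). Cd63, a lysosomal tetraspanin, read 4.57, 2.54 and 4.27 against 1.08, 1.07 and 0.66 (2.85 ± 0.42, adjusted p = 0.00439).

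In Mmp12 and Cd63 the highest level belonged to high-fat replicate 1. Lgals1, a galectin, differed by 2.23 ± 0.46 (adjusted p = 0.0117, and 0.0513 without high-fat replicate 1), and the lipid-sensing receptor gene Trem2 by 1.79. The member called lower was Atp6v0d2, a proton pump subunit (-1.06), which lost its call in 8 of the 12 fits. The list's count was 5 without high-fat replicate 1 and 7 without low-fat replicate 1 or 3. The list names genes that other cells also express; Spp1 is also among the cholangiocyte markers and Lpl among the PPARG targets.

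The list of Kupffer cells and general macrophages did not move one way. Of 20 measured, 3 were called higher and 3 lower, with a median of 0.24. Mrc1, the mannose receptor of resident macrophages, read 0.68, 1.22 and 0.94 on high fat and 1.85, 2.12 and 1.96 on low fat (-1.03 ± 0.16, adjusted p = 0.00506). Timd4 (-2.25) and Cd163 (-2.87), also resident macrophage receptors and named here after their values were seen, were the others lower. Higher were Cx3cr1, the fractalkine receptor (2.15 ± 0.41, adjusted p = 0.00915; its second probe read 0.39 and did not pass), Cd14 (1.59 ± 0.37) and Cd68 (0.76 ± 0.20). Cd14 and Cd68 did not pass without high-fat replicate 1 (adjusted p = 0.0802 and 0.121) or low-fat replicates 1 (0.071 and 0.11) or 3 (0.0607 and 0.0584), nor Cd68 without high-fat replicate 2 (0.0653). The resident genes Clec4f (0.02) and Vsig4 (-0.20) and the pan-macrophage gene Adgre1 (0.13) did not pass. Without high-fat replicate 1 or low-fat replicate 1, 1 gene was left in each direction; 1 was lower without high-fat replicate 3 or low-fat replicate 2 or 3, 1 was higher without low-fat replicate 3, and 2 were higher without high-fat replicate 2.

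**Figure D3:**
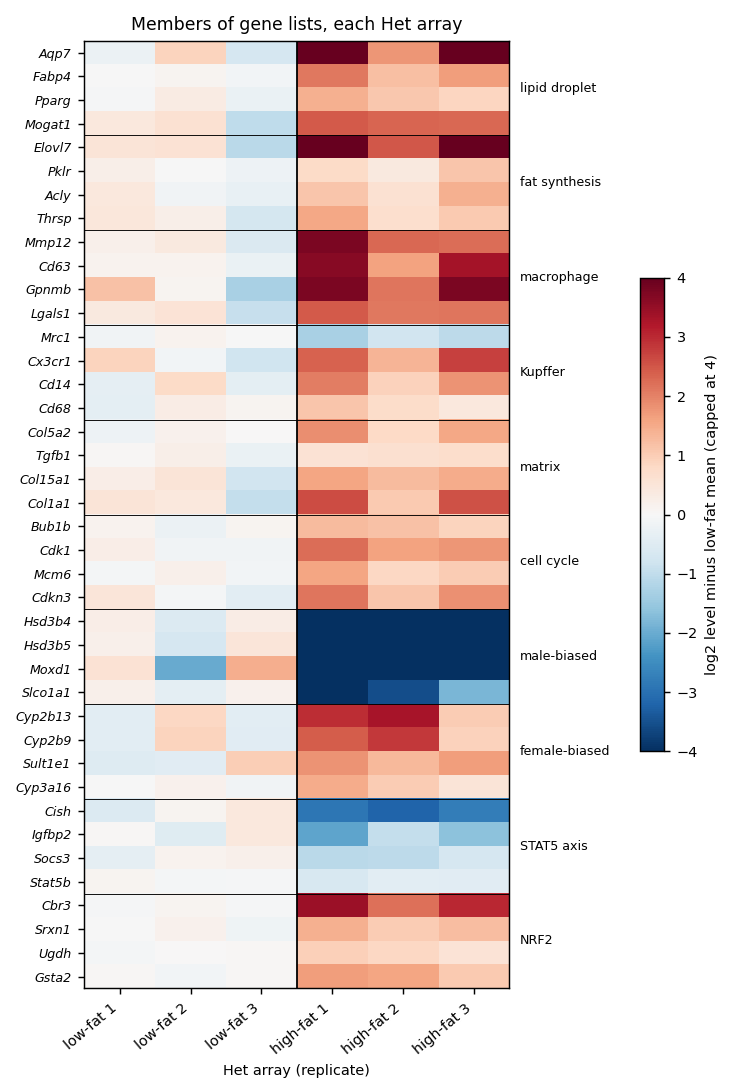
Log2 level minus the mean of the 3 low-fat Het arrays (colour, capped at 4 in either direction) for up to 4 called genes of lowest p in each of 10 lists, in each of the 6 Het arrays (columns, by diet and replicate). Hsd3b4, Hsd3b5 and Moxd1 reach the lower cap in all 3 high-fat columns, and Cyp2b13 and Cyp2b9 are palest in high-fat replicate 3.

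The matrix and stellate cell genes that passed were all higher on the high-fat diet. Of 27 measured, 15 were called higher and 0 lower, with a median of 0.65. Col5a2, a fibrillar collagen, read -1.96, -3.02 and -2.26 on high fat and -4.02, -3.64 and -3.80 on low fat (1.41 ± 0.23, adjusted p = 0.00528). Col1a1, the main collagen of scar, read 2.84, 1.28 and 2.76 against 0.74, 0.66 and -0.72 (2.07 ± 0.48, adjusted p = 0.019; 0.0801 without high-fat replicate 1 and 0.0544 without low-fat replicate 3). Tgfb1, the fibrogenic cytokine, differed by 0.65 ± 0.14 (adjusted p = 0.016), but by 0.47 with the GC trend removed, where it did not pass (adjusted p = 0.111), nor did it with the Het arrays alone (0.0546).

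Col3a1 (1.26) and the cross-linking enzymes Loxl1 (1.15) and Loxl2 (1.24) were among the others higher, and the activation marker Acta2 (0.45), Des (0.47) and Timp1 (0.13) did not pass. The count of 15 was 2 without high-fat replicate 1, 5 without high-fat replicate 3, 8 without low-fat replicate 1 or 2 and 5 without low-fat replicate 3. Of 18 metalloproteinase and inhibitor genes, 6 were called higher and 0 lower (2 without high-fat replicate 1 or low-fat replicate 3). Among them Timp3, an inhibitor bound to the matrix, read 2.45, 1.62 and 1.99 against 1.13, 0.83 and 0.96 (1.04 ± 0.19, adjusted p = 0.00855). Of 19 S100 and annexin genes 4 were higher (7 without high-fat replicate 2), among them Anxa2, a membrane-binding protein at 4.14, 2.88 and 3.24 against 1.22, 1.54 and 0.99 (2.17 ± 0.27, adjusted p = 0.0032).

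The cell cycle genes that passed were all higher on the high-fat diet. Of 26 measured, 14 were called higher and 0 lower, with a median of 1.04. Cdk1, the kinase that drives entry into mitosis, read -1.64, -2.26 and -2.09 on high fat and -3.61, -4.0 and -4.0 on low fat (1.88 ± 0.30, adjusted p = 0.00545). Bub1b, of the spindle checkpoint, read -3.40, -3.50 and -3.76 against -4.52, -4.89 and -4.55 (1.10 ± 0.17, adjusted p = 0.0048). The replication helicase gene Mcm6 differed by 1.14 ± 0.19 and the phosphatase gene Cdkn3 by 1.69 ± 0.32.

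Mki67 (0.94), Top2a (0.61) and Pcna (0.44) did not pass. The count of 14 was 4 without high-fat replicate 1, 7 without high-fat replicate 3 or low-fat replicate 3 and 9 without low-fat replicate 2 or WT high-fat replicate 1. Of 20 p53 targets, Bax, which promotes apoptosis (0.54 ± 0.11), and Trp53inp1 (0.66 ± 0.18) were called higher and 0 lower; neither passed without high-fat replicate 1 (adjusted p = 0.0513 and 0.0819) or low-fat replicate 1 (0.0506 and 0.0828), nor Trp53inp1 without high-fat replicate 2 or low-fat replicates 2 or 3 (0.0512, 0.0783 and 0.0683). Bax read 0.32 with the GC trend removed (adjusted p = 0.0567), and Trp53inp1 0.47 on another probe once runs of 6 or more G and T bases were left out (0.15).

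The secreted proteins of the hepatocyte split. Of 24 acute phase genes, 7 were called higher and 1 lower, with a median of 0.44. Orm3, an orosomucoid, read 1.51, 0.98 and 1.60 on high fat and 0.22, 0.12 and -0.35 on low fat (1.37 ± 0.26, adjusted p = 0.0094). The metal-binding metallothioneins Mt1 (1.77) and Mt2 (2.33) and the serum amyloids Saa1 (1.52) and Saa2 (1.43) were also higher, and Fga, a fibrinogen chain, fell by 0.65 (adjusted p = 0.0121, and 0.053 without high-fat replicate 1). The count of 7 was 2 without high-fat replicate 1 or low-fat replicate 1 and 4 without low-fat replicate 3. Of 28 complement and coagulation genes, 5 were called lower and 0 higher (3 without high-fat replicate 1). Masp1, which starts the lectin pathway, read 3.80, 3.84 and 3.50 against 4.42, 4.35 and 4.40 (-0.68 ± 0.13, adjusted p = 0.00881; -0.42 and 0.0528 with the GC trend removed). C1ra was called lower on the probe used (-0.98 ± 0.13), while its second probe read 0.01.

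Of 25 cytokine and NF-kB target genes, 7 were called higher and 2 lower. Nfkb2, the non-canonical subunit, read 0.06, -0.16 and -0.17 on high fat and -1.09, -1.06 and -1.23 on low fat (1.04 ± 0.13, adjusted p = 0.00311). The chemokine gene Ccl4 read -0.94, -1.66 and -0.13 against -3.11, -2.26 and -3.21 (1.95 ± 0.36, adjusted p = 0.00838). Tnf (0.95) and Il1b (-0.31) did not pass. Nfkb1 was called lower on the probe used (-0.56 ± 0.12), but its other probes read 0.77, 0.34 and -0.22, and the sign turned to 0.08 with the mean of all its probes and to 0.11 with a trend on GC content removed. The count of 7 was 3 without high-fat replicate 1 and 4 without low-fat replicate 1 or 3; the count of 2 was 1 without high-fat replicate 1 or low-fat replicate 2.

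Of 24 interferon-stimulated genes, 5 were called higher and 0 lower, among them Isg20, an exonuclease (0.80 ± 0.15, adjusted p = 0.00829), and Ifit2 (0.85 ± 0.17; adjusted p = 0.0511 without high-fat replicate 1). The count was 1 without high-fat replicate 1, 3 without high-fat replicate 2 and 2 without low-fat replicate 1 or 3.

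Called targets of NRF2, the regulator of the antioxidant response, were all higher. Of 19 measured, 8 were called higher and 0 lower, with a median of 0.45, and 4 without high-fat replicate 1 or low-fat replicate 1. Cbr3, a carbonyl reductase, read 2.98, 1.74 and 2.56 on high fat and -0.51, -0.34 and -0.51 on low fat, 7.38-fold higher (2.88 ± 0.29, adjusted p = 0.00214). Srxn1, sulfiredoxin, read 4.55, 4.15 and 4.38 against 3.13, 3.30 and 2.96 (1.23 ± 0.14, adjusted p = 0.00311). Gsta2, a glutathione transferase, differed by 1.43 ± 0.28 and Ugdh by 0.78 ± 0.15. The glutathione synthesis genes Gclc (-0.22) and Gclm (-0.53) and Nfe2l2, which encodes NRF2 (0.04), did not pass.

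The stress genes gave both directions. Of 22 genes of ER stress and the integrated stress response, 4 were called higher and 2 lower, with a median of -0.22; 1 was higher without high-fat replicate 1 or low-fat replicate 1 or 2 and 2 without low-fat replicate 3, and 1 was lower in 9 of the 12 fits. Atf3, also an immediate early gene, read 0.18, -0.92 and -0.50 on high fat and -2.15, -1.61 and -2.79 on low fat (1.77 ± 0.31, adjusted p = 0.0069), and Chac1, a glutathione-degrading ATF4 target, read 0.69, -0.43 and 0.14 against 1.31, 1.30 and 1.73 (-1.32 ± 0.27, adjusted p = 0.0117). Of 17 immediate early genes, 4 were called higher and 3 lower, Junb among the latter on a G and T run probe; 1 was higher without high-fat replicate 1 and 2 without low-fat replicate 3, and 1 was lower without low-fat replicate 1 or 2, any WT high-fat array or WT low-fat replicate 1.

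Glucose metabolism shifted in single genes. Of 22 glycolysis genes, 5 were called higher and 0 lower (2 without high-fat replicate 1), with a median of 0.38. Pkm, the pyruvate kinase of most non-hepatocyte cells, read 0.54, 0.17 and 0.42 on high fat and -0.60, -0.48 and -0.85 on low fat (1.02 ± 0.16, adjusted p = 0.00488). Its second probe read 0.56 and did not pass. Hk2, a hexokinase low in normal liver, differed by 1.5 ± 0.30 (adjusted p = 0.011, and 0.0511 without high-fat replicate 1). Of 21 gluconeogenesis and glycogen genes, 4 were called lower and 0 higher (2 without high-fat replicate 1). Ppp1r3c, which targets a phosphatase to glycogen, read -0.76, 0.32 and 0.24 against 2.11, 1.74 and 1.40 (-1.81 ± 0.36, adjusted p = 0.0109). Insr, the insulin receptor, was called lower on the probe used (-0.91 ± 0.14), while its second probe read 0.36 and did not pass, nor did the mean of both (-0.27, adjusted p = 0.223).

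Bile acid genes were called lower in 4 and higher in 2 of 22 cases, and 0 were higher without any Het array but high-fat replicate 3 and 1 without WT high-fat or low-fat replicate 1. Beside Slco1a1 and Cyp7b1, Akr1d1, the bile acid 5-beta-reductase, read -0.16, -0.00 and -0.68 against 0.66, 0.50 and 0.81 (-0.94 ± 0.20, adjusted p = 0.0132; -0.65 and 0.0638 with the GC trend removed), and Cyp7a1, the rate-limiting enzyme of the classic pathway, read 0.45 and did not pass. Among xenobiotic genes 2 of 25 were higher (1 without high-fat replicate 1 or low-fat replicate 1 or 3) and 2 lower (1 without high-fat replicate 1 or low-fat replicate 3): Cyp3a11 differed by 1.18 ± 0.24 and Cyp2c54 by -1.77 ± 0.29. Smad7, an inhibitor of the BMP signal that controls hepcidin, was the leading call of the 20 iron genes, where 3 were lower and 0 higher (1 without high-fat replicate 1 or low-fat replicate 1): -0.57, -0.49 and 0.02 on high fat against 1.42, 0.91 and 1.27 (-1.55 ± 0.25, adjusted p = 0.00545).

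Several lists stayed near or below the share over all genes. Oxidative phosphorylation had 1 of 27 called (Cycs, cytochrome c, 0.41 ± 0.11), heat shock proteins 1 of 17 (Serpinh1, a collagen chaperone, 0.75 ± 0.22), and the urea cycle 1 higher (Glul, glutamine synthetase, 0.59 ± 0.12) and 1 lower (Cps1, the first enzyme, -0.94 ± 0.16) of 18. Of 20 sirtuin and NAD genes, Nmrk1, which makes NMN from nicotinamide riboside, was higher (0.94 ± 0.22) and Sirt7 lower (-0.55 ± 0.15); neither passed without high-fat replicate 1 (adjusted p = 0.0587 and 0.0917) or low-fat replicate 1 (0.0731 and 0.0841), nor Sirt7 without high-fat or low-fat replicate 3 (0.0739 and 0.0855). Cycs lost its call without any Het array but high-fat replicate 3 (adjusted p up to 0.0945), and Serpinh1 in 8 of the 12 fits (up to 0.152, without high-fat replicate 1). The mean of its probes read 0.20 for Cycs (adjusted p = 0.236), and Serpinh1 read 0.63 with normexp background correction (0.0564). None of 18 clock genes passed limma's test; Clock came closest at -0.60 ± 0.18 (adjusted p = 0.0505), and without WT high-fat replicate 3 2 clock genes were lower and 1 higher.

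**Figure D4:**
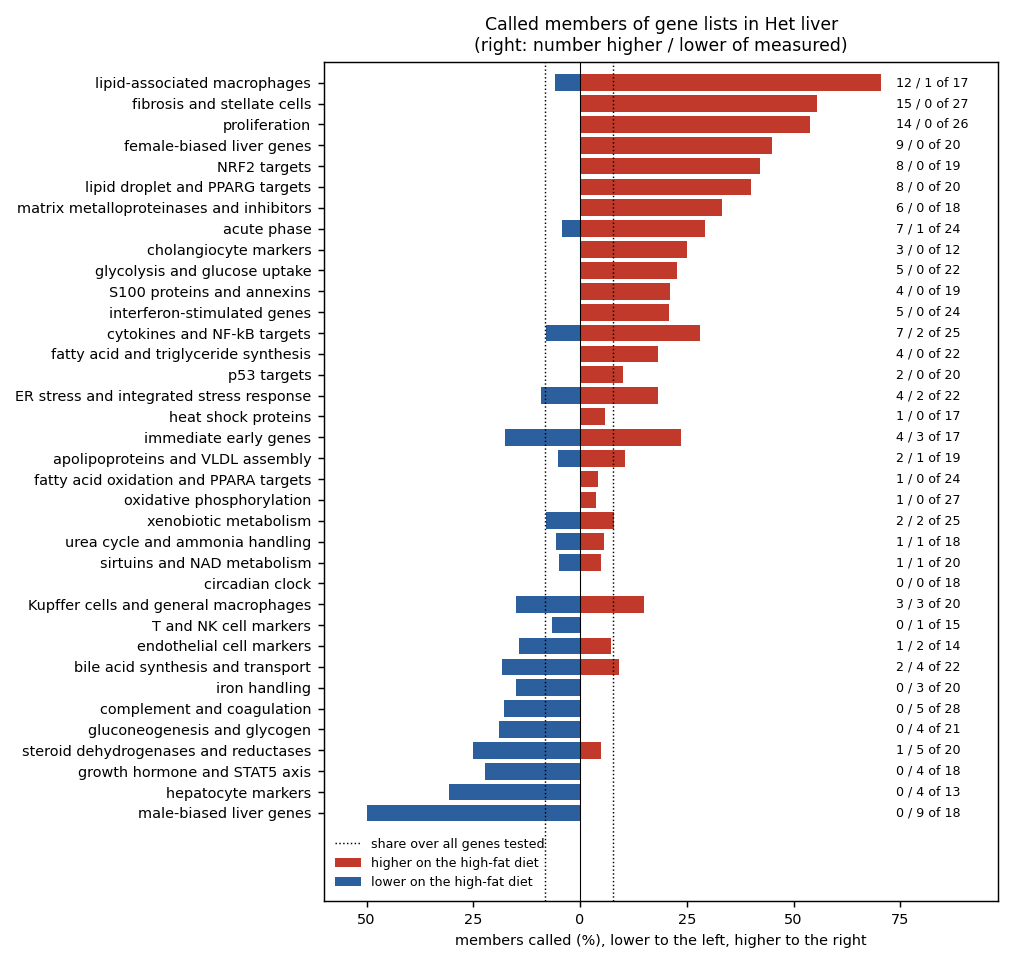
Share of measured members called higher (red, to the right) or lower (blue, to the left) on the high-fat diet in Het liver, for the lists described with at least 10 measured members, with the numbers at the right and dotted lines at the shares over all genes tested (7.6% higher and 8.26% lower). Lipid-associated macrophage genes have the longest red bar (12 of 17) and male-biased liver genes the longest blue bar (9 of 18).

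Marker genes of cell types were described by their calls and by their summed level, and most of these lists showed few calls. The summed linear level of the cholangiocyte markers (13 genes on the array) lay between 18.6 and 75 on high fat and between 10.4 and 12.9 on low fat, highest in high-fat replicate 1; 3 of 12 tested were called higher (Spp1, Tspan8 and Prom1) and 0 lower, with 1 called without high-fat replicate 1 or 3 or low-fat replicate 3, 0 without low-fat replicate 1 and 7 without high-fat replicate 2. Spp1 (2.09 ± 0.46) lost its call without low-fat replicate 1 alone (adjusted p = 0.0527). The adipocyte markers summed to between 28.5 and 70.1 on high fat against 5.87 to 11.7 on low fat. Cidec and Fabp4, given above with the lipid droplet genes, made up most of each sum, so the sum is not separate evidence. Of 5 tested, 3 were called higher, all 3 also in the lipid droplet and PPARG list. Of the defining fat cell genes, Lep was not well above background on any Het array, Retn on 1, Plin1 on 2 and Adipoq on 4. The part of bile duct or fat cells in the results above was not tested.

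All 13 hepatocyte markers were well above background on all 6 Het arrays, and their sums overlapped between the diets (1132 to 1628 on high fat, 1222 to 1601 on low fat). Of the 13, 4 were called lower and 0 higher. Cps1 passed in each fit, Hnf4a, a hepatocyte transcription factor, read -0.82 ± 0.17 on the probe used and 0.03 and -0.03 on its others (adjusted p = 0.0567 on the probe used without high-fat replicate 1, and -0.27 with 0.292 for the mean of its probes). Ttr and Asgr2 did not pass without high-fat replicate 1 (adjusted p = 0.12 and 0.153), low-fat replicate 1 (0.11 and 0.138) or low-fat replicate 2 (0.0919 and 0.0859), and the list's count was then 1, 2 and 2; nor did either pass with the GC trend removed (-0.72 and -0.48; adjusted p = 0.0742 and 0.0667). Endothelial markers summed to 39.3 to 47.7 against 45 to 48.1, with 1 of 14 higher and 2 lower (0 lower without high-fat replicate 1 or low-fat replicate 2, 1 without high-fat replicate 3, low-fat replicate 1 or 3, WT high-fat replicate 2 or 3 or any WT low-fat array). Cdh5 was lower on the probe used (-0.73), while its other probe, used once G and T runs of 6 or more were left out, read -0.01 (adjusted p = 0.965). With the GC trend removed, neither Kdr (-0.21, adjusted p = 0.321) nor Vwf, the gene called higher (0.60, 0.175), passed. Among T and NK cell markers 1 of 15 (Cd3e, -1.16 ± 0.30) and among neutrophil markers 1 of 8 (Csf3r, -0.80 ± 0.21) were called, both lower; Cd3e lost its call in 4 of the 12 fits (adjusted p up to 0.0818) and Csf3r in 6 (up to 0.0882), both highest without low-fat replicate 2. With the GC trend removed Csf3r read -0.60 (adjusted p = 0.0672), and 4 neutrophil markers were called higher without WT high-fat replicate 2 and 1 without WT high-fat replicate 3. None of the 7 B cell, 4 red blood cell, 3 pancreatic acinar or 5 gut epithelium genes tested passed limma's test; the lowest adjusted p values were those of Cd22 (0.114), Alas2 (0.251), Cela1 (0.0663) and Fabp2 (0.0691). The 2 probes of Cela1 read 1.42 and 1.59, and 1 of them was called higher in the fit over all probes. With single arrays left out, at most 1 acinar and 2 gut epithelium genes were called, all higher. The gut epithelium markers summed to between 59.0 and 93.0 on high fat and between 49.5 and 56.7 on low fat, so these sums did not overlap either.

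The diet difference in WT liver, measured on other arrays scanned on the same 2 days, was called for 1009 genes (5.92%), 466 higher (2.73%) and 543 lower (3.19%). Of these, 719 were also called in Het, which is 71.3% of the WT list and 26.6% of the Het list. In 718 of the 719 the direction was the same. Over all 17042 genes the sign was the same in 77.9%. In both genotypes diet coincides with scan day and slide, so a shared direction cannot be assigned to diet. Genes called higher in Het had a median of 0.86 there and 0.56 in WT, and genes called lower -0.82 and -0.53; since they were chosen on the Het values, the larger Het medians are a description. The difference between the genotypes was tested directly, and 0 of 17042 genes passed limma's test of genotype by diet (lowest adjusted p = 0.944); 828 (4.86%) had an unadjusted p under 0.05, where 852.1 would have it by chance. Being called in Het and not in WT, as 1985 genes were, therefore does not show a different response.

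The intervals show how wide the uncertainty is. For Cish the diet difference was -2.95 in Het and -1.08 in WT, and the Het difference minus the WT difference was -1.87 (95% interval -2.62 to -1.13, unadjusted for the number of genes; adjusted p = 0.944). For Hsd3b5 it was -3.45 (-6.01 to -0.89) and for Slco1a1 -1.57 (-3.29 to 0.14). For Cdk1 it was 1.07 (0.12 to 2.02) and for Bub1b 0.91 (0.39 to 1.43), and for Tinag 0.84 (-1.26 to 2.94). None of these passed after adjustment.

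The lowest unadjusted p values toward a higher Het difference belonged to AK162987, Akap6, an anchoring protein of protein kinase A (1.01 ± 0.19), Aoc2, an amine oxidase (1.27 ± 0.26), Slamf7, an immune receptor (1.45 ± 0.31), and Ccdc96. Toward a lower one they belonged to Cish, Myl7, a myosin light chain (-2.23 ± 0.40), Gpc3, a glypican (-1.82 ± 0.35), Heyl (-0.93 ± 0.18) and Plxna2 (-0.84 ± 0.17). Among the lists, proliferation had 14 called higher in Het and 3 in WT, with medians of 1.04 and 0.54, and fibrosis and stellate cells had 15 and 5, with medians of 0.65 and 0.64; whether these lists differ between the genotypes was not tested.

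**Figure D5:**
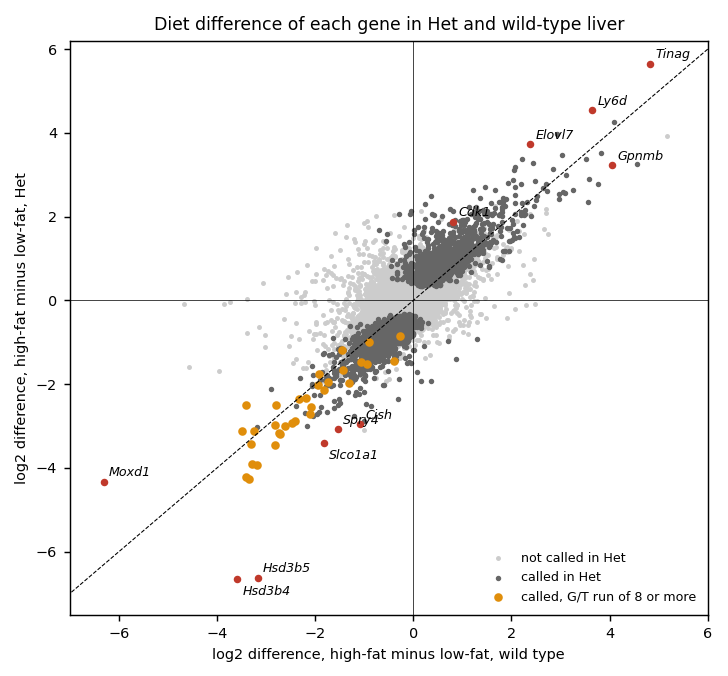
Log2 difference between high-fat and low-fat diet for each of the 17042 genes in WT liver (horizontal) and Het liver (vertical); grey points were not called in Het, dark points were, orange points are called genes with a G and T run of 8 or more, red points are named, and the dashed line marks equal differences. Hsd3b4, Hsd3b5 and Cish lie below the dashed line and Moxd1 above it, and no gene passed the test of genotype by diet.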

How the data were processed

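The deposited scanner files hold, per the file headers, Agilent Feature Extraction output (version 9.5 per the submitters' processing notes) with probe positions of mm7; the values used were the authors' processed signal intensity, which is background-corrected, and the spot flags, whose settings are not given in the sources used here. The deposited value table, also an intensity, equals these processed signals for 100% of spots within 0.1%, so its scale is linear and it is not centred; its column medians were 78.3 to 163.4. Control spots and 1344 outlier spots were left out, spots of a probe were averaged, and log2 intensity minus log2 of the array's 75th percentile was taken. A probe was kept where all 3 arrays of any group were well above background and each group had at least 2 values left (25296 of 41174). The brightest kept probe stood for a gene. Probes were named by accession (23075), symbol (6589) or older symbol (3060) through a RefSeq table, and otherwise kept the file's name (8450).

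A model of group means over all 12 arrays was fitted in limma 3.58.1 under R 4.3.3 (lmFit, eBayes; 8 residual and 2.8 prior degrees of freedom), two-sided, with Benjamini-Hochberg adjustment over all 17042 genes and a threshold of 0.05. Errors after ± are standard errors. An "at least" fold sets the mean of the detected group against, on each array of the other group, whichever is larger, that probe's signal or the lowest one found among probes well above background. On simulated data with 50 genes changed at each size in 17042, the Het diet comparison recovered 14% at 1.5-fold, 56% at 2-fold, 98% at 4-fold and 96% at 8-fold, with 9 false calls. Far fewer genes were changed there than the 2704 called in the real comparison. Recovery after adjustment depends on that number, so these shares do not carry over to it. Precision is limited by the number of arrays.

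The text names, of the called genes that carry a current symbol, have non-overlapping groups and lack a G and T run of 8 or more, the 10 that rose most and the 10 that fell most; the 5 largest decreases with such a run (no increase qualified); up to 4 called genes of lowest p in each list, or the gene of lowest p where none was called; the 5 lowest p values in each direction for genotype by diet; and every Sirt1 probe. Other list members are named to complete a count, with values seen. The members and lists were chosen with earlier results of these data known. Same-numbered high-fat and low-fat Het arrays did not deviate together, so replicate numbers were not used as pairs. Alternatives covered the dim-probe filter, scaling, background correction, GC trend, G and T run probes, probe choice, arrays in the fit, blocks, and leaving out each array. The list of cholesterol synthesis and uptake is not reported here.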

Additional observations from a re-analysis of the deposited data

How the results depend on the processing

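The number of genes called in Het was within 1.5 times of 2704 under the other scalings, background correction, GC trend, probe choices, removal of G and T run probes and the replicate block; their range was 1912 to 3040, the low end being the block. It was 1193 (563 higher, 630 lower) without the dim-probe filter, over 27668 genes, 1561 (728 and 833) with the 6 Het arrays alone, and 5429 (2563 and 2866) with slide as a random block, whose estimated correlation was -0.18; the cause was not tested. Leaving out 1 of the 12 arrays gave 874 to 2884 called, 367 to 1395 higher and 507 to 1489 lower; genotype by diet had 0 called except 3 without WT high-fat replicate 3 and 1 without Het low-fat replicate 1. The replicate block, whose numbers do not pair the arrays (correlations of same-numbered deviations -0.319, -0.122 and -0.364), gave 1912 called (906 higher, 1006 lower). Of the 139 named genes called, 71 were called whichever array was left out, and 66 missed the threshold without high-fat Het replicate 1. Among named genes the sign turned for Nfkb1 (0.11 with the GC trend removed, 0.0803 with the mean of its probes), Itgb3 (0.14 without runs of 8 or more, or of 6 or more) and Bcorl1 (0.0385 without runs of 8 or more), where another probe then stands for the gene. In the simulation 14% of 1.5-fold changes were recovered, with 50 genes changed at each size. Far fewer genes were changed there than the 2704 called here, and recovery after adjustment depends on that number. The 14% therefore does not measure how well small changes were found in the real comparison.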

Other observations

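More genes crossed the detection limit upward than downward. Of the 1296 genes called higher, 102 were not well above background on any low-fat Het array, and of the 1408 called lower, 25 were not above it on any high-fat Het array. Such genes entered the test through a group in which they were detected, and the share over all genes was not computed. The share of spots well above background also differed, at 66.3%, 68.4% and 62.4% on the high-fat Het arrays and 58.8%, 63.1% and 62.2% on the low-fat ones. The 2 counts are therefore a description. Low-fat replicate 3 held the lowest low-fat value in 50.8% of the genes called higher, in 46.5% of those called lower and in 38.4% of all genes, and low-fat replicate 2 in 13.9%, 31.2% and 27.1%. Mmp12, Gpnmb, Cidec and Col1a1 are among the genes in which replicate 3 was the lowest.

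Neutrophil granule genes had positive differences that did not pass: Camp, an antimicrobial peptide, read 2.09, Ltf, lactoferrin, 1.66 and Mpo, myeloperoxidase, 1.24. Camp and Ltf were well above background on 3 high-fat and 0 low-fat Het arrays. Detection on all 3 arrays of a group is also what lets a probe into the test, so this adds no support. The 3 genes were named after their values were seen, and the only neutrophil marker called, Csf3r, was lower (-0.80). The summed level of the neutrophil markers was 2.29, 2.67 and 5.12 on high fat and 1.86, 3.46 and 1.46 on low fat, so the diets overlapped.

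The hepcidin gene Hamp, the iron hormone of the liver, read -1.68 and did not pass, beside the called decreases of Smad7 (-1.55 ± 0.25) and Tfr2 (-0.54 ± 0.11; adjusted p = 0.013, and 0.0567 without high-fat replicate 1 and 0.0525 without low-fat replicate 1), which act in its regulation.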
